A study of Mus musculus with 4 samples.

Results

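The 10 genes described here encode abundant translation factors and other proteins whose mRNAs are known as TOP mRNAs: Eef1a1, Eef1b2, Eef1d, Eef1g, Eef2, Tpt1, Pabpc1, Npm1, Nap1l1 and Hnrnpa1. They were taken by name from the 53647 genes of the deposited count tables, and all 10 passed the low count filter that left 12972 genes for testing. The list was chosen by gene class and by measured abundance, Eef1a1 being the gene with the highest counts, so levels are given as a description. It was made with earlier results of these data known, so that the fold changes and adjusted p-values describe these libraries and are not independent evidence about the genes as a set.

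RNA was sequenced from 4T1 cells, a mouse mammary carcinoma line labelled as wild type in genotype. The uniSTING cells were given mRNA that encodes a designed mimic of STING, an adaptor of innate immunity. The Mock cells were given EGFP mRNA, which encodes a green fluorescent protein, and each group has 2 preparations. Both groups were thus given a foreign mRNA, delivered with a transfection reagent or with lipid nanoparticles. The labels do not say which carrier was used for which preparation, and give neither dose nor time. All libraries come from 1 cell line, and nothing says that the preparations were separate cultures, so the spread behind each p-value is that among libraries and may be technical.

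A TOP mRNA begins with a terminal oligopyrimidine tract, a cytosine at the cap followed by an unbroken run of pyrimidines. Growth signals acting through the kinase mTORC1 control how well such mRNAs are translated, and the RNA-binding protein LARP1 binds the cap and the tract. Nearly all cytosolic ribosomal proteins and several translation factors are encoded by TOP mRNAs, so that cells can adjust their translation machinery as a block. RNA sequencing of total RNA measures the amount of these mRNAs and not their translation.

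The tracts themselves are shown because they define the class. Annotated transcripts of GENCODE M21 (build GRCm38) were searched over their first 60 bases for a C followed by at least 5 bases that are each C or T, on the transcript strand. For 6 of the 10 genes an annotated transcript began with such a tract, against 6.8% of 12956 tested genes with a transcript there and 33 of 80 tested ribosomal protein genes. Any annotated transcript of a gene could match, so genes with more transcripts had more chances. The median number of transcripts was 7.5 for the 10 genes, 6 for the ribosomal protein genes and 5 for all tested genes. The following 24-base stretches start at the first base of the tract, which is in capitals.
Eef1b2: CCTTTTTTTCCCTCagcgctggcc
Eef1d: CTCTCCTTTgcagtcctgagctcg
Tpt1: CTTTTCCgcccgctcccccctccc
Pabpc1: CCCCTTCTCCCCggcggttagtgc
Nap1l1: CTTTTTTagcgccatctgctcgcg
Hnrnpa1: CTTTCTgctctttgacgctgccga
Eef1a1: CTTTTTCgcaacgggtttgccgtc
The first 6 are annotated 5′ ends, though that of Eef1b2 belongs to a transcript marked for nonsense-mediated decay and that of Tpt1 to one with a retained intron, neither of them the coding transcript. In GRCm38 the printed bases lie at chr1:63177129-63177152 (plus strand) for Eef1b2, chr15:75909283-75909306 (minus) for Eef1d and chr14:75845331-75845354 (plus) for Tpt1. They lie at chr15:36608950-36608973 (minus) for Pabpc1, chr10:111473227-111473250 (plus) for Nap1l1 and chr15:103240454-103240477 (plus) for Hnrnpa1. The tract of Eef1a1 began at base 54 of its annotated coding transcript (chr9:78481648-78481671, minus strand, GRCm38). Eef1g and Npm1 likewise had a tract only further inside, at base 44 and base 30. A tract anywhere in the first 60 bases is common, being found for all 10 genes and for 72.0% of the tested genes, so those inner matches say little. The tracts were 6 bases long in Hnrnpa1, 7 in Tpt1, Nap1l1 and Eef1a1, 9 in Eef1d, 12 in Pabpc1 and 14 in Eef1b2. A match describes these letters in an annotation and does not show where transcription starts in 4T1 cells.

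Total counts were 18843543 and 25071840 in the uniSTING libraries and 17502694 and 22039546 in the Mock libraries. Of 8 epithelial marker genes, 7 were tested and Krt5 had 1 count in all, and their summed level was 4166 and 4190 CPM in uniSTING and 3930 and 3966 CPM in Mock, where CPM are counts scaled to library size. Of 11 leukocyte, endothelial and fibroblast markers, Pdgfra was the only one tested. Summed over these 11, the level was 8.72 to 11.9 CPM in uniSTING and 6.61 to 9.87 CPM in Mock, with Itgam at 0 in every library. The leukocyte marker Ptprc had 19 and 0 counts in uniSTING replicates 1 and 2 and 8 and 0 in Mock replicates 1 and 2. The part of these traces in the results below was not tested. The interferon-stimulated gene Isg15, given as a check of the treatment, had 26.5 and 25.7 CPM in uniSTING libraries and 10.2 and 11.4 CPM in Mock libraries. Uptake of the delivered mRNAs was not checked here, because a mouse annotation holds neither uniSTING nor EGFP.

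Together the 10 genes took 3.71% of all counts in each uniSTING library and 3.59% in each Mock library. Per length the order was the other way, with 3.78% and 3.79% of all TPM in uniSTING and 3.84% in each Mock library. Without Eef1a1, the other 9 took 1.62% and 1.63% in uniSTING, against 1.74% in each Mock library. At an adjusted p under 0.05 (edgeR quasi-likelihood test, Benjamini-Hochberg adjustment over all genes tested), 5 genes were higher in uniSTING, 3 were lower, and 2 did not pass. Of all tested genes, 24.9% were called higher and 25.4% lower, so calls in both directions were common everywhere. The median log2 fold change was 0.07 over the 10 genes and 0.01 over all tested genes. No change reached 2-fold, and the median absolute log2 fold change was 0.19, against 0.23 over all tested genes. For 9 of the 10 genes the uniSTING and Mock libraries did not overlap in CPM, which was so for 75.1% of all tested genes.

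**Figure D1:**
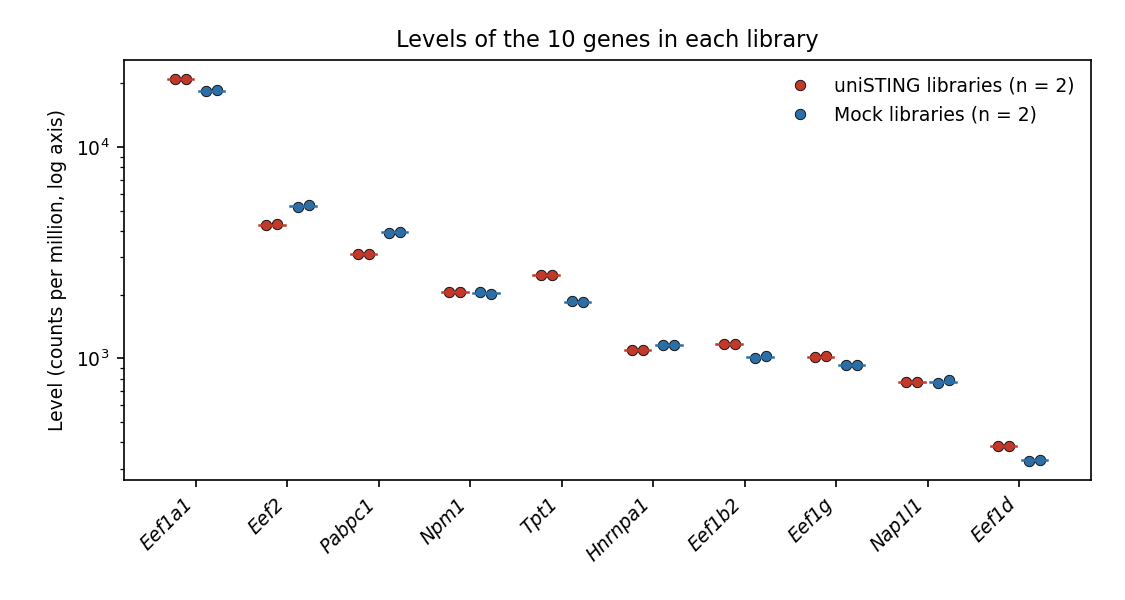
Level of each of the 10 genes in each library (vertical axis: CPM on TMM-scaled library sizes, log axis), with genes ordered by their Mock mean. Points are libraries and short lines the mean of 2 libraries. Eef1a1 lies at 18463 CPM or more in all 4 libraries, Tpt1 is higher in uniSTING, and Eef2 and Pabpc1 are lower.

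Eef1a1 encodes eEF1A1, the GTPase that delivers aminoacyl-tRNA to the ribosome (ENSMUSG00000037742, chromosome 9, 78385731 to 78396433, minus strand, GRCm39). It had 392400 and 521594 counts in uniSTING libraries and 325410 and 409079 counts in Mock libraries. In CPM these were 20945 and 20954 in uniSTING and 18463 and 18512 in Mock. Both uniSTING libraries stood above both Mock libraries, and the gap was far wider than the spread within a group. The log2 fold change was 0.18 (SE 0.01, 1.13-fold, adjusted p = 3.45e-09). Its share of all counts was 2.08% in each uniSTING library and 1.86% in each Mock library.

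In mean CPM the genes next to Eef1a1 were the chaperone gene Hsp90ab1 at 6056 CPM, the ribosomal protein gene Rpsa at 4956 CPM and the galectin gene Lgals1 at 4955 CPM. Levels of different genes are compared per length, in TPM, which divides counts by the summed exon length and scales every library to the same total. On that scale too Eef1a1 ranked first, at 23723 and 23742 TPM in uniSTING and 22858 and 22835 TPM in Mock, and Lgals1 was second. Eef2 ranked 5th in CPM and 22nd in TPM, and Pabpc1 ranked 10th in CPM and 76th in TPM, since their summed exons are longer.

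The 3 subunits of eEF1B, the complex that recharges eEF1A with GTP, all rose. Eef1b2, the alpha subunit with exchange activity, had 1161 and 1163 CPM in uniSTING libraries and 1006 and 1020 CPM in Mock libraries. Its log2 fold change was 0.20 (SE 0.01, adjusted p = 8.54e-07). Eef1d, the delta subunit, which also carries exchange activity, had 384 and 383 CPM in uniSTING and 326 and 330 CPM in Mock. Its log2 fold change was 0.23 (SE 0.02, adjusted p = 3.82e-06). Eef1g, the gamma subunit that anchors the complex, had 1016 and 1019 CPM in uniSTING and 931 and 930 CPM in Mock. The change was 0.13 on the log2 scale (SE 0.01, adjusted p = 1.99e-05), the smallest of the 3, and this call was lost once the trend with gene length, described below, was removed. In each of these genes both uniSTING libraries were above both Mock libraries.

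Per length, Eef1a1 exceeded Eef1b2 by 18.3-fold in both uniSTING libraries, against 18.6-fold and 18.4-fold in the Mock libraries. Eef1b2 and Eef1g were close to each other, with a TPM ratio of 1.17 in both uniSTING libraries and 1.11 and 1.13 in the Mock libraries. Near-identical copies, described below, held 50.9% and 51.1% of the counts of Eef1g plus copies in uniSTING and 51.9% and 51.8% in Mock. No such copy was found for Eef1b2, so this closeness holds for counts at the genes alone. Eef1d was the lowest of the 10 genes, at 167 TPM in uniSTING and 155 to 157 TPM in Mock. Its deposited length of 6488 bases sums the exons of all isoforms, while its 15 annotated coding transcripts measure 350 to 2842 bases. Its level per length is thus understated more than that of Eef1g, with 2600 bases summed and a coding transcript of 1864. For Eef1b2, with 2532 bases summed and coding transcripts of 681 to 1939, that comparison depends on the transcripts present. Pabpc1, like Eef1d, has a summed length, 6540 bases, well above its coding transcripts of at most 2817 bases.

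Eef2 went the other way. It encodes eEF2, the GTPase that moves the ribosome along the mRNA after each peptide bond (ENSMUSG00000034994, chromosome 10, 81012465 to 81018332, plus strand, GRCm39). It had 4271 and 4311 CPM in uniSTING libraries and 5216 and 5282 CPM in Mock libraries. Both uniSTING libraries lay below both Mock libraries, and Eef2 fell by 0.29 on the log2 scale (SE 0.01, adjusted p = 3.91e-09). The TPM ratio of Eef1a1 to Eef2 was 6.54 and 6.48 in uniSTING, against 4.72 and 4.67 in Mock. The mRNAs of the 2 main elongation factors thus moved apart in these libraries.

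Tpt1 had the widest rise of the 10. It encodes the translationally controlled tumour protein TCTP, and its mRNA is a classic TOP mRNA (ENSMUSG00000060126, chromosome 14, 76082533 to 76085965, plus strand, GRCm39). It had 2487 and 2486 CPM in uniSTING libraries and 1855 and 1850 CPM in Mock libraries. The log2 fold change was 0.43 (SE 0.01, 1.34-fold, adjusted p = 5.22e-10), and the libraries of a group differed by less than 10 CPM. Among 80 tested ribosomal protein genes, 33 had a larger log2 fold change than Tpt1.

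Pabpc1 had the widest fall in the counts as deposited, while Eef2 fell further once the length trend was removed. That removal uses a summed length of 6540 bases for Pabpc1, well above its coding transcripts of at most 2817 bases. With length and GC trends removed Pabpc1 again fell further, at -0.31 on the log2 scale against -0.25 for Eef2. Pabpc1 encodes the cytoplasmic poly(A)-binding protein, which joins the poly(A) tail to the cap complex (ENSMUSG00000022283, chromosome 15, 36595905 to 36609912, minus strand, GRCm39). It had 3101 and 3122 CPM in uniSTING libraries and 3931 and 3949 CPM in Mock libraries. The log2 fold change was -0.34 (SE 0.01, 0.79-fold, adjusted p = 1.29e-09), with both uniSTING libraries below both Mock libraries. The TPM ratio of Tpt1 to Pabpc1 was 2.20 and 2.19 in uniSTING, against 1.30 and 1.29 in Mock. Eef2 and Pabpc1 moved nearly in step, with a TPM ratio of Eef2 to Pabpc1 of 2.71 and 2.72 in uniSTING and 2.61 and 2.63 in Mock.

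Hnrnpa1, which encodes a nuclear RNA-binding protein that acts in splicing, fell by 0.08 on the log2 scale (SE 0.01, adjusted p = 5.59e-04). It had 1093 and 1089 CPM in uniSTING libraries and 1159 and 1148 CPM in Mock libraries, which did not overlap. Npm1 encodes the nucleolar chaperone nucleophosmin, which acts in ribosome assembly. It had 2054 and 2060 CPM in uniSTING and 2046 and 2022 CPM in Mock, groups that lay side by side without overlap. Its log2 fold change was 0.02 (95% interval -0.01 to 0.04, adjusted p = 0.28). Nap1l1, a histone chaperone gene, had 769 and 769 CPM in uniSTING and 760 and 788 CPM in Mock, and the uniSTING libraries lay between the Mock libraries. Its log2 fold change was -0.01 (95% interval -0.05 to 0.03, adjusted p = 0.707).

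The order of the 10 genes by TPM was nearly the same in both groups. In uniSTING it ran Eef1a1, Eef2, Tpt1, Npm1, Pabpc1, Eef1b2, Eef1g, Hnrnpa1, Nap1l1 and Eef1d, and in Mock Hnrnpa1 stood above Eef1g. No neighbours in either order overlapped in their libraries, though Pabpc1 exceeded Eef1b2 by only 1.04-fold in uniSTING, and Tpt1 exceeded Npm1 by only 1.02-fold in Mock. Eef2 exceeded Tpt1 by 1.24-fold in uniSTING and by 2.03-fold in Mock. These orders hold only for summed exon lengths and for counts at the genes alone, without those at near-identical copies, described below. Copies of Eef1g held about as many counts as Eef1g. For Tpt1 the summed length is 2380 bases, while its coding transcripts measure 996 to 1169 bases. For Eef2 the summed length is 3324 bases and the coding transcript 3089. The TPM of Tpt1 is thus understated more than that of Eef2, so which of them is higher per transcript is not settled here.

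**Figure D2:**
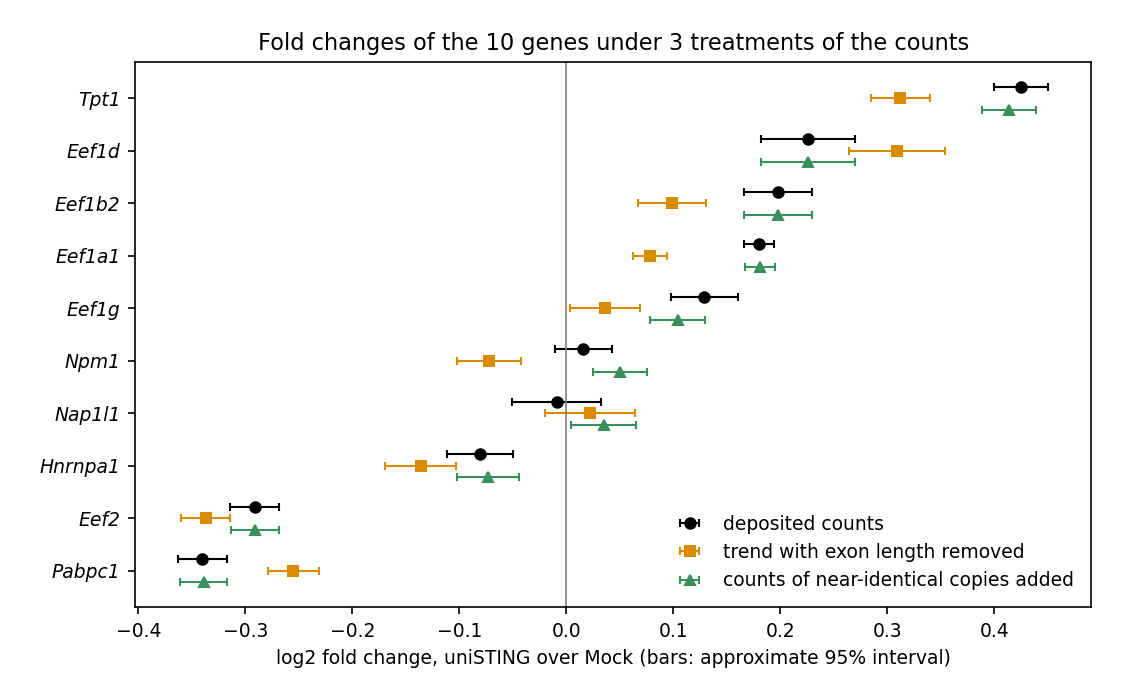
Log2 fold change of each gene, uniSTING over Mock (horizontal axis), with approximate 95% intervals from 2 libraries per group. Black circles use the deposited counts, orange squares remove the trend with exon length, and green triangles add the counts of near-identical copies. The points of Tpt1, Eef1d, Eef1b2, Eef1a1 and Eef1g stay above 0 and those of Hnrnpa1, Eef2 and Pabpc1 below it in all 3. Those of Npm1 and Nap1l1 change side.

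Fold changes followed gene length in this comparison, with shorter genes higher in uniSTING. Spearman's rank correlation coefficient between summed exon length and log2 fold change was -0.61 over the 10 genes and -0.36 over 12972 tested genes, descriptions across genes that share the same 4 libraries. The trend over all tested genes was removed from each library's counts and the fit repeated. The coefficient was then 0.01 over all tested genes but still -0.54 over the 10 genes. Of the 10 genes, 4 were then higher, 4 lower, and 2 did not pass, against 23.4% of all tested genes called higher and 22.2% called lower. Eef1d, at 6.49 kb, moved from 0.23 to 0.31 on the log2 scale, and Tpt1, at 2.38 kb, from 0.43 to 0.31. Both shifts rest on summed lengths well above those of the coding transcripts, at most 2842 bases for Eef1d and 1169 for Tpt1. Eef1a1 kept 0.08 and Eef1b2 0.10, both still past the threshold (adjusted p = 1.05e-05 and 2.64e-04). Eef1g lost its call, at a log2 fold change of 0.04 (adjusted p = 0.073). Npm1 turned to -0.07 and passed (adjusted p = 0.00144). Eef2, at -0.34, and Pabpc1, at -0.26, stayed lower. With the trend in GC content removed as well, Eef1g had a log2 fold change of 0.06 and passed (adjusted p = 0.00559), and Nap1l1 fell by 0.12 (adjusted p = 4.51e-04).

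**Figure D3:**
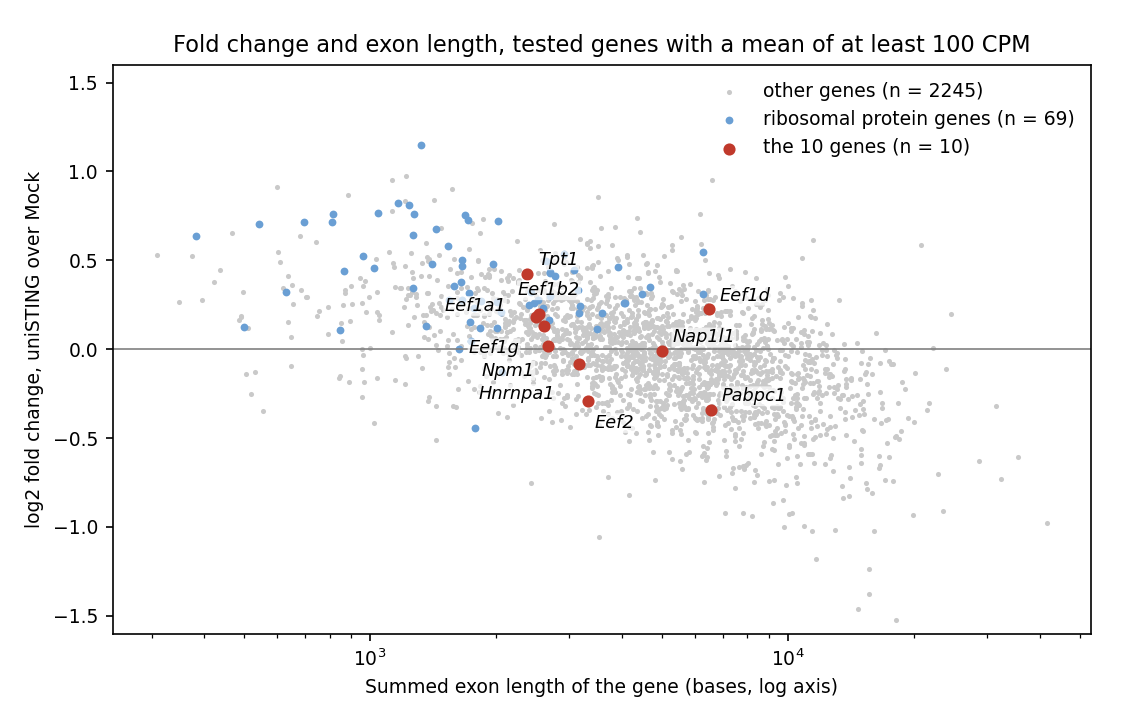
Log2 fold change, uniSTING over Mock, against summed exon length (log axis) for 2324 tested genes with a mean of at least 100 CPM. Red points are the 10 genes, blue points 69 ribosomal protein genes and grey points the others. Tpt1, Eef1b2 and Eef1a1 sit among genes of 2.4 to 2.5 kb, Eef1d stands high for its summed length, which exceeds that of its coding transcripts, and Eef2 and Pabpc1 lie below 0.

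Several of these genes have processed pseudogenes nearly identical to their mRNA, and only uniquely mapped reads were counted. Other annotated genes with at least 95% identity over at least 300 aligned bases of a member's coding transcript were found for 8 of the 10 genes, the exceptions being Eef1b2 and Eef1d. For Eef1g one copy, Gm4366 (chromosome 7, 116423745 to 116425086, GRCm39), singled out after its values were seen, held as many counts as the gene. Gm4366 had 19110 and 25800 counts in uniSTING libraries and 17323 and 21706 counts in Mock libraries. Eef1g had 19033 and 25373 counts in uniSTING libraries and 16411 and 20554 counts in Mock libraries. The ratio of the copy to the gene was 1.00 and 1.02 in uniSTING and 1.06 in both Mock libraries.

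The copy and the gene differ at 5 of 1342 aligned bases. One of these is C849T, counted from 1 at the 5′ end of the annotated coding transcript of Eef1g, with the gene's base first, and the 25 bases around it show how little separates reads of the 2 loci. The differing base is in capitals.
Eef1g: gcagagagccagCctaaaaaagata
Gm4366: gcagagagccagTctaaaaaagata
The Nap1l1 copy Gm4204 differs at 2 of 1111 aligned bases and had 6634 and 8632 counts in uniSTING and 5810 and 6813 counts in Mock.

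Copies held 50.9% and 51.1% of the counts of Eef1g plus copies in uniSTING, against 51.9% and 51.8% in Mock. The share was 31.5% and 31.1% in uniSTING and 30.2% and 28.1% in Mock for Nap1l1, and 20.4% and 20.1% in uniSTING and 18.5% and 18.4% in Mock for Npm1. It was 11.9% to 12.1% in uniSTING and 11.2% to 11.8% in Mock for Hnrnpa1, and 3.65% to 4.24% in uniSTING and 4.58% to 4.77% in Mock for Tpt1. For Eef1a1, Eef2 and Pabpc1 it stayed under 0.4%. Reads that map to both gene and copy are counted at neither, and their number was not measured here. Which of the reads at a copy came from the gene was not tested. The levels of Eef1g, Nap1l1, Npm1 and Hnrnpa1 are uncertain for that reason. A low share at copies does not show that few reads were lost, so the other genes with copies are not exempt. One copy of Tpt1 was 100% identical over 519 aligned bases, and Eef1a1 had 8 copies.

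**Figure D4:**
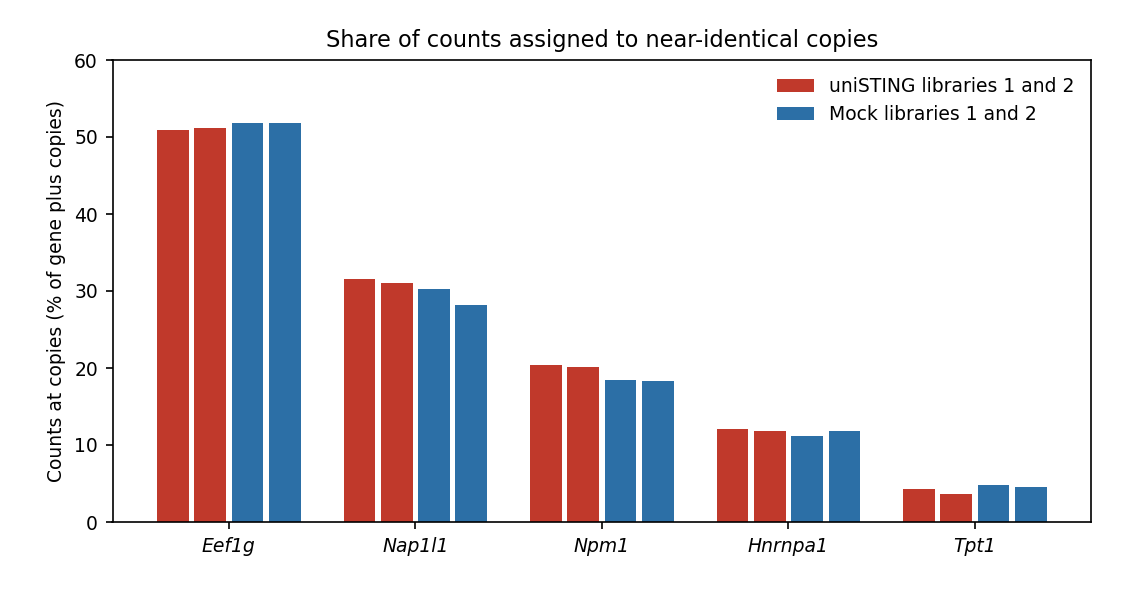
Share of counts assigned to near-identical copies, as a percentage of the counts of the gene plus its copies (vertical axis), in each library, for the 5 genes with the highest shares. Each gene has 4 bars, uniSTING libraries 1 and 2 and then Mock libraries 1 and 2. Copies of Eef1g hold about as many counts as Eef1g in all 4 libraries.

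With the counts of the copies added to each gene, chosen after the copies had been counted, Eef1g had a log2 fold change of 0.10 (adjusted p = 2.42e-05). Npm1 then passed at 0.05 (adjusted p = 0.00363), which makes 6 genes higher and 3 lower, and Nap1l1 had a log2 fold change of 0.035 that did not pass (adjusted p = 0.0513). The fold changes of Eef1a1, Eef2, Pabpc1 and Tpt1 moved by about 0.01 or less. Counting without strand adds little to this, since the only exon overlap with a gene on the opposite strand covered 0.36% of the exon bases of Eef1b2. On the same strand, exons of other genes covered at most 4.33% of the exon bases of any of the 10. Eef1b2, Eef2, Tpt1 and Nap1l1 also host small nucleolar RNA genes in their introns, which had at most 59 counts in a library.

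Other genes with TOP mRNAs, outside the list of ribosomal protein genes below, moved both ways as well. In this list of 11, 6 rose and 2 fell while 3 did not pass, with a median log2 fold change of 0.06. Over all tested genes, 24.9% were called higher and 25.4% lower. The ribosomal protein gene Fau, whose product is made as a ubiquitin-like fusion, rose to 926 and 938 CPM in uniSTING, against 721 and 737 CPM in Mock. Rack1, a scaffold on the small subunit, rose by 0.16 on the log2 scale and the initiation factor subunit gene Eif3h by 0.29. Vim, the intermediate filament gene vimentin, fell to 1911 and 1929 CPM in uniSTING, against 2229 and 2243 CPM in Mock. The other that fell was Eif4b, an initiation factor gene outside the naming rule, at 604 and 611 CPM in uniSTING and 792 and 798 CPM in Mock (log2 fold change -0.39, adjusted p = 1.15e-08). With the length trend removed, 6 were higher and 4 lower, and with length and GC trends removed 4 were lower.

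The cytosolic ribosomal protein genes, which form most of the TOP class, mostly rose. Of the 80, 71 rose and 4 fell while 5 did not pass, with a median log2 fold change of 0.32. The shares over all tested genes were 24.9% called higher and 25.4% called lower. Rplp0, a stalk protein gene, rose to 3962 and 4008 CPM in uniSTING, against 3281 and 3297 CPM in Mock. Rpl41 rose by 0.82, Rpl19 by 0.46 and Rplp1 by 0.13 on the log2 scale. With the length trend removed the median was 0.21, 61 were higher and 10 lower, and Rplp1 turned to -0.17. Of all tested genes, 23.4% were then called higher and 22.2% lower. The medians of the 10 genes were 0.07 in the counts as deposited and 0.03 with that trend removed. The difference between these groups was not tested.

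Tested genes for other elongation factors and the enzymes that modify them numbered 17. Of these, 8 rose and 5 fell while 4 did not pass (median 0.01), against 24.9% higher and 25.4% lower of all tested genes. With length and GC trends removed, 4 were higher, and lower calls numbered 3 with DESeq2 and 3 without Mock replicate 2. Eif5a, which encodes the factor that eases stalled peptide bonds, had 2457 and 2446 CPM in uniSTING, against 2088 and 2125 CPM in Mock, and rose by 0.22 on the log2 scale. The ribosome recycling gene Abce1 rose by 0.10 and Eef1e1, a component of the multi-synthetase complex, by 0.16. With length and GC trends removed neither passed, at 0.03 for Abce1 (adjusted p = 0.151) and 0.05 for Eef1e1 (adjusted p = 0.387). The lysine methyltransferase gene Eef1akmt1 rose by 0.26 (adjusted p = 0.0284), a call lost with DESeq2 (adjusted p = 0.058), without either the first Mock library (adjusted p = 0.284) or the second uniSTING library (adjusted p = 0.0551), and with the length trend removed (adjusted p = 0.955). Eef1a2, the paralog of Eef1a1 known from muscle and neurons, had 6 and 1 counts in uniSTING and 5 and 1 counts in Mock, too few to be tested.

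The mitochondrial elongation factor genes showed no call in edgeR's test (0 of 5), against 24.9% higher and 25.4% lower of all tested genes. Of the 5, 2 had an unadjusted p under 0.05 in that test. DESeq2 and limma-voom called 0 as well. Tufm had 123 and 130 CPM in uniSTING and 116 and 122 CPM in Mock, and the groups did not overlap (log2 fold change 0.10, adjusted p = 0.0504). Tufm passed without uniSTING replicate 1 (0.14, adjusted p = 0.00369) and without Mock replicate 2 (0.13, adjusted p = 0.0398), and was at 0.045 without uniSTING replicate 2. Gfm1 had a log2 fold change of 0.07, Guf1 one of 0.12 and Tsfm one of -0.09. The counts depended on the setting, with 2 higher under upper quartile scaling and under a filter of 1 CPM in 2 libraries, 1 higher without a low count filter, and 2 higher and 1 lower with the length trend removed.

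Of 23 tested regulators of TOP mRNAs and of the mTORC1 pathway, 4 rose and 9 fell while 10 did not pass (median -0.07). For all tested genes the shares called were 24.9% higher and 25.4% lower. Rps6, the ribosomal protein phosphorylated by the S6 kinases, rose to 1847 and 1827 CPM in uniSTING, against 1421 and 1447 CPM in Mock. Cnbp and Ssb, whose proteins bind TOP sequences, rose by 0.25 and 0.22 on the log2 scale. With length and GC trends removed Ssb was lower, at -0.08 (adjusted p = 0.0147). Eif4ebp1, a translation repressor controlled by mTORC1, had 237 and 247 CPM in uniSTING and 238 and 236 CPM in Mock (log2 fold change 0.04, adjusted p = 0.298). With the length trend removed, 7 of the 23 were higher and 8 lower, and their median turned to 0.04.

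Of 9 tested paralogs and partners of the 10 genes, 3 rose and 4 fell while 2 did not pass (median 0.09). Npm3, a paralog of Npm1, rose by 0.35 on the log2 scale and Hnrnpa2b1, a paralog of Hnrnpa1, by 0.09. Hnrnpa0, another paralog of Hnrnpa1, fell by 0.35, and Vars, the valyl-tRNA synthetase that binds the eEF1 complex, fell by 0.30. Calls in both directions were common everywhere, with 24.9% of all tested genes called higher and 25.4% lower, so these counts say little about the paralogs.

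The genes most like Eef1a1 in pattern were sought among 2251 other tested genes with a mean of at least 100 CPM, by the Euclidean distance between gene-centred log2 CPM over the 4 libraries. The nearest were Rbl1, Tmsb10, Ppp2r5c, Actl6a and Rab1a, at distances of 0.005 to 0.01, all with log2 fold changes from 0.17 to 0.19. With 2 tight libraries per group, this likeness rests almost wholly on a similar fold change.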

How the data were processed

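RNA sequencing of 4T1 cells gave 4 libraries, 2 uniSTING and 2 Mock, grouped by their titles. The deposited values are raw counts per gene, which the authors made, per the file headers, with featureCounts 2.0.1 in paired-end mode, without a strand option, over exons of the Ensembl 103 annotation of GRCm39 and on uniquely mapped reads. HISAT2 is named as a tool, without a version, per the submitters' processing notes. Near-identical copies therefore compete for reads. Summed exon lengths are the deposited ones. Identifiers were given symbols from a table that matched 52093 of 53647.

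The counts went into edgeR 4.0.16 under R 4.3.3 (TMM, default filter by group with a minimum count of 10 and a minimum total of 15, glmQLFit, glmQLFTest, Benjamini-Hochberg adjustment at 0.05). Standard errors were derived from the F statistic and are approximate. CPM uses TMM-scaled library sizes. TPM uses summed exon lengths. Length and GC trends were removed by lowess (span 0.3) as offsets, with GC content from reference transcripts for 99.9% of tested genes. Copies were found with BLAST 2.17.0 on GENCODE M21 transcripts. Alternatives also used DESeq2 1.42.0 and limma 3.58.1. The fit and the trend removal were tested on simulated counts. Some sequence matches are not reported here.

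The members and lists were chosen with earlier results of these data known. Named genes are the 10 members, the 4 genes of each other list with the highest mean TPM, the 3 genes after Eef1a1 in mean CPM and the 5 genes nearest to it in pattern, without predicted or clone names. Other names are marked, or serve as checks.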

Additional observations from a re-analysis of the deposited data

How the results depend on the processing

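The calls of Eef1a1, Eef1b2, Eef1d, Eef2, Tpt1, Pabpc1 and Hnrnpa1 kept direction and side of the threshold in all 15 alternatives, with log2 fold changes from 0.06 to 0.21, 0.07 to 0.23, 0.21 to 0.31, -0.34 to -0.25, 0.31 to 0.46, -0.35 to -0.26 and -0.20 to -0.05. Members called higher numbered 4 to 6. Members called lower numbered 3 or 4, except 5 with length and GC trends removed. Their median was 0.10 under upper quartile scaling, 0.029 with the length trend removed (also with the replicate block), -0.029 with length and GC trends removed, and 0.066 to 0.079 when 1 library was left out. Eef1g was at 0.036 with the length trend removed, with or without the replicate block. Npm1 passed at 0.046 under upper quartile scaling and at 0.05 with copies added. It was at -0.072 with the length trend removed, with or without the block, and at -0.17 with length and GC trends removed. Nap1l1 was at 0.021 under upper quartile scaling, at 0.022 with the length trend removed, with or without the block, at 0.035 with copies added, at -0.12 with length and GC trends removed, and from -0.042 to 0.015 without 1 library. Among the other named genes, with the length trend removed Tufm turned to -0.04, Eif4ebp1 to -0.095 and Rplp1 to -0.167, and with the block added to -0.041, -0.095 and -0.168. With length and GC trends removed Eif4ebp1 was at -0.101, Rplp1 at -0.076 and Ssb at -0.084, where it passed as lower. Without 1 library Eif4ebp1 was between -0.003 and 0.067. The causes were not tested beyond what each alternative removes.

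Same-numbered preparations deviated together (correlation 0.53 over 7970 genes), but the labels do not say that a number marks a shared batch and there are only 2 pairs. With the replicate block alone, 3374 genes were higher and 3403 lower over all tested genes, against 3225 and 3290, and no call of the 10 genes changed. It made 4 of the other TOP genes lower in place of 2, and Tufm passed (0.095, adjusted p = 0.0205). Leaving out 1 library gave 2585 to 3027 higher and 2702 to 3071 lower. With 1 library left out, the lone sample of its group is assumed to vary like the others. At these depths counting error is small for the 10 genes, and the number of libraries and the copies limit precision.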

Other observations

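A few genes that act on the 10 were outside the naming rule and are given as values, chosen after their values were seen. Larp1, which encodes the protein that binds the cap and tract of TOP mRNAs, had 261 and 256 CPM in uniSTING libraries and 423 and 424 CPM in Mock libraries (log2 fold change -0.71, SE 0.02, edgeR adjusted p = 1.16e-09). With the length trend removed it was at -0.62 (adjusted p = 1.31e-08). Mtor, the kinase of mTORC1, had 47.8 and 46.0 CPM in uniSTING and 65.8 and 66.3 CPM in Mock (log2 fold change -0.50, or -0.31 with the length trend removed). Eef2k, which encodes the kinase that inhibits eEF2, had 16.7 and 17.7 CPM in uniSTING and 24.1 and 22.9 CPM in Mock (log2 fold change -0.45, or -0.34 with the length trend removed). In each of these 3 genes both uniSTING libraries were below both Mock libraries, and 75.1% of all tested genes had groups that did not overlap. The 3 do not stand for their lists. Among the 23 tested regulators, which include Larp1 and Mtor, 4 rose, 9 fell and 10 did not pass. The shares over all tested genes were 24.9% higher and 25.4% lower.

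Copies differed in how near they stayed to their gene. The Npm1 copy Gm9118 rose by 0.22 on the log2 scale (edgeR adjusted p = 9.42e-06) while Npm1 did not pass. The Eef2 copy Gm13050 fell by 0.58, against a fall of 0.29 in Eef2, and Gm5525, a minor copy of Eef1g with 397 and 500 counts in uniSTING and 225 and 266 counts in Mock, rose by 0.73, against 0.13 in Eef1g. The differences between copy and gene were not tested.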
